A study of Mus musculus with 18 samples.

Results

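The antigens considered here are surface proteins by which the stromal cells of this study were sorted or characterised, together with common mesenchymal markers. They are the depleted blood-cell antigens CD45 (Ptprc), CD11b (Itgam) and CD11c (Itgax), the antigens CD29 (Itgb1) and CD44 (Cd44) by which the purified cells were characterised in flow cytometry, and 5 further surface proteins known from mesenchymal cells: CD90 (Thy1), CD105 (Eng), CD73 (Nt5e), CD166 (Alcam) and Sca-1 (Ly6a). The 10 genes were named from the purification scheme and from textbook markers, with earlier results of these data known. Of these, 9 were measured, each by 1 probe set, among 19505 genes with a name, and Ly6a is not analysed here.

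Total RNA from bone marrow mesenchymal preparations of 18 mice was hybridised to 1 array per mouse. The groups were BALB/c controls of 12 weeks (5 mice), NeuT mice of 12 weeks (5 mice), BALB/c controls of 24 weeks (4 mice) and NeuT mice of 24 weeks (4 mice). NeuT mice are BALB/c mice with an activated rat Erbb2 (neu) transgene under the mouse mammary tumour virus promoter, which is active mainly in mammary epithelium, and they develop mammary tumours. The labels call the NeuT mice tumour-bearing, so the transgene and the tumours cannot be told apart. All preparations came from femurs and tibias by immunomagnetic depletion of cells with CD45, Ter119, CD11b, CD11c, CD3, Gr1 or B220.

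CD45 is a receptor tyrosine phosphatase present on leukocytes and absent from mesenchymal cells. CD11b and CD11c are the alpha chains of integrins that pair with the beta chain CD18 (Itgb2); CD11b is carried by neutrophils, monocytes and macrophages, and CD11c in the mouse mainly by dendritic cells. CD29 is the beta chain of the fibronectin, laminin and collagen receptors and CD44 is the receptor for hyaluronan, and both are found on blood cells as well as on stromal cells. CD90, CD105, CD73 and CD166 are used together to define cultured mesenchymal stromal cells, although CD90 is also carried by mouse T cells, CD105 by endothelial cells and CD73 and CD166 by several blood cells.

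The regions upstream of the depleted antigens' genes are shown because the factor PU.1, which drives myeloid genes including Itgam, binds a core written GAGGAA. The 250 bases before each start were taken from RefSeq (GRCm38.p6), 5′ to 3′ on the gene's strand, with GAGGAA and its reverse complement TTCCTC in capitals. The regions are chr7:128062390-128062639 (plus strand) for Itgam, chr7:128129300-128129549 (plus strand) for Itgax and chr1:138175306-138175555 (minus strand) for the first of the listed Ptprc starts.
Itgam: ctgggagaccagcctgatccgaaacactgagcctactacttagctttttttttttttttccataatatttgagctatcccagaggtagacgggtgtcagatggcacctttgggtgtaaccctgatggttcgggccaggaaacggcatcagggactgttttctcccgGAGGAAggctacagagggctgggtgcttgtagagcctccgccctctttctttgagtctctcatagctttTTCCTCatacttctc
Itgax: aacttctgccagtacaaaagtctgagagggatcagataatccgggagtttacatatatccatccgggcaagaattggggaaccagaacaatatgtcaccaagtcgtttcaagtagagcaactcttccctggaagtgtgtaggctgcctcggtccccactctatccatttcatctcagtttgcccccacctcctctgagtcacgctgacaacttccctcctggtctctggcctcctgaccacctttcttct
Ptprc: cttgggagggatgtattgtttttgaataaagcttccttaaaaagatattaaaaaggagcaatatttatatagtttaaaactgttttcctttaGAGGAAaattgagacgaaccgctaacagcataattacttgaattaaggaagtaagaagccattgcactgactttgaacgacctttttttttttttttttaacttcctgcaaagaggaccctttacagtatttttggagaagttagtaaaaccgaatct
The Itgam window held 2 matches, whose last bases lay 79 and 10 bases before the start. The Ptprc window held 1 match, 153 bases before the start, and the Itgax window held none. The window of the other listed Ptprc start also held none. Searched on both strands, the motif occurred in 6 of the 8 antigen genes with a promoter entry, counted per gene over all its starts. It occurred in 23.3% of all 32851 windows, counted per window, so these shares are in unlike units. GAGGAA was the only motif searched, and a match is a description of the letters, not a site of binding.

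The deposited values are log2 signals. Array medians ran from 8.43 to 8.56, and correlations between arrays across genes, which are not independent replicates, ran from 0.978 to 0.997. In the BALB/c 24-week group replicate 1 had the lowest median and the lowest top signal (13.68, against 14.06 to 14.24 elsewhere), and replicate 3 had the highest median. Replicate 3 was also among the 3 arrays least correlated with the others (0.988), with NeuT 12-week replicate 4 (0.987) and NeuT 24-week replicate 1 (0.991). For NeuT 12-week replicate 4 the labels give different animal numbers in different fields, with the same group in both. Negative control probe sets had a median of 7.35 and a 95th percentile of 10.46, over all arrays. The table has no detection calls, so dim signal of the antigen genes and cell-type examples is marked by an array count. It is the number of arrays in which a gene exceeds the 95th percentile of the negative controls on the same array. Genes of the further lists are set against the 10.46 over all arrays instead. Levels of different probe sets are not compared with each other.

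The preparations carried transcripts of blood cells. The neutrophil granule genes Elane (13.62 to 14.24) and Mpo (13.45 to 14.02) and the B-cell receptor component Cd79a (10.48 to 12.37) exceeded the negative controls' 95th percentile in 18 of 18 arrays. The mesenchymal examples Pdgfrb (7.96 to 8.92), Lepr (5.20 to 5.80), Cxcl12 (9.04 to 9.45) and Col1a1 (9.69 to 10.23) were above it in 0 arrays. So were the T-cell gene Cd3e (8.24 to 9.31) and the endothelial gene Cdh5 (7.64 to 8.50). Such a count marks dim signal, not absence: Cxcl12 and Col1a1 lay at percentiles 63.2 and 74.5 of all genes. Other listed genes differed from these examples. The mesenchymal marker Itgav (11 to 11.36) and the T- and NK-cell gene Nkg7 (12.16 to 13.07) exceeded 10.46 in every array. The B-cell genes Ms4a1 (7.63 to 8.77) and Cd22 (8.08 to 9.11) lay below 10.46 in every array. In RNA of whole preparations, fewer cells of a type and less RNA per cell cannot be told apart.

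**Figure D1:**
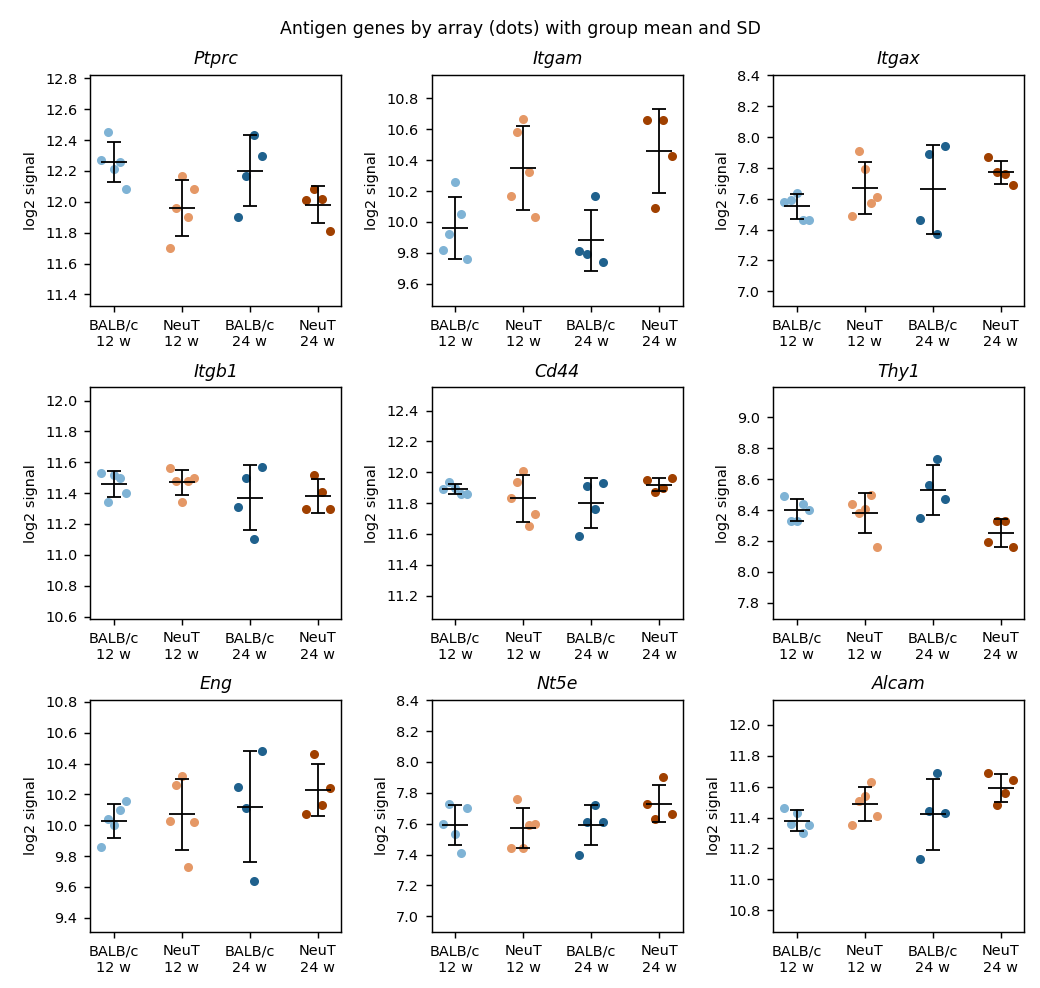
Log2 signal (vertical axis, the same span in each panel) of the 9 measured antigen genes in the 4 groups (horizontal axis); each dot is 1 array and the bars give the group mean and SD. Itgam is higher in the NeuT groups (means 10.35 and 10.46) than in the BALB/c groups (9.96 and 9.88), and Ptprc is lower (11.96 and 11.98 against 12.26 and 12.20).

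Among the depleted antigens, Itgam was higher in NeuT than in BALB/c preparations and passed the test at 24 weeks. Ptprc had a lower mean in NeuT preparations but passed at neither age, and Itgax passed in no NeuT comparison. Itgam was 1.5-fold higher in NeuT mice at 24 weeks, as a ratio of signals that lay near the upper range of the negative controls. It exceeded their 95th percentile in 2 of 5 NeuT arrays at 12 weeks, 3 of 4 NeuT arrays at 24 weeks and 0 BALB/c arrays (5 of 18 in all), so the size of the fold in transcript level is not known. Averaged over both ages, a comparison chosen after seeing the data, Itgam was 1.4-fold higher and Ptprc fell by 0.26 on the log2 scale.

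The Itgam signal in the 12-week BALB/c mice was 9.82, 9.92, 10.26, 10.05 and 9.76. In the 12-week NeuT mice it was 10.17, 10.58, 10.67, 10.32 and 10.03. The groups overlapped, with 3 of 5 NeuT arrays above every BALB/c array. The difference was 0.39 (SE 0.13, 95% confidence interval 0.12 to 0.66) and did not pass limma's moderated test (adjusted p = 0.0838). At 24 weeks the BALB/c mice had 9.81, 9.79, 10.17 and 9.74, and the NeuT mice 10.66, 10.09, 10.66 and 10.43. All NeuT arrays but replicate 2 lay above every BALB/c array, and that NeuT array lay below the highest BALB/c array, replicate 3. The difference was 0.59 (SE 0.14, 95% confidence interval 0.29 to 0.88) and passed (limma, adjusted p = 0.0427).

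The 24-week call for Itgam lay near the threshold. Leaving out any of the 24-week arrays other than NeuT replicate 2 ended it, with differences of 0.52 to 0.68 and adjusted p from 0.0544 to 0.224 in limma. Without NeuT replicate 2 the difference was 0.71 (adjusted p = 0.00654). The call was also lost without BALB/c 24-week replicates 1 and 3 together (0.70, adjusted p = 0.18). Averaged over both ages, the difference was 0.49 (SE 0.097, 95% confidence interval 0.29 to 0.69; limma, adjusted p = 0.00283), and it passed in 27 of 27 alternatives, with values from 0.44 to 0.59. Comparing only the 2 groups, or using unmoderated unequal variances, also ended the 24-week call, and neither setting was run for the average. The plot of the Itgam effect by processing setting shows the values at 24 weeks and for the average.

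**Figure D2:**
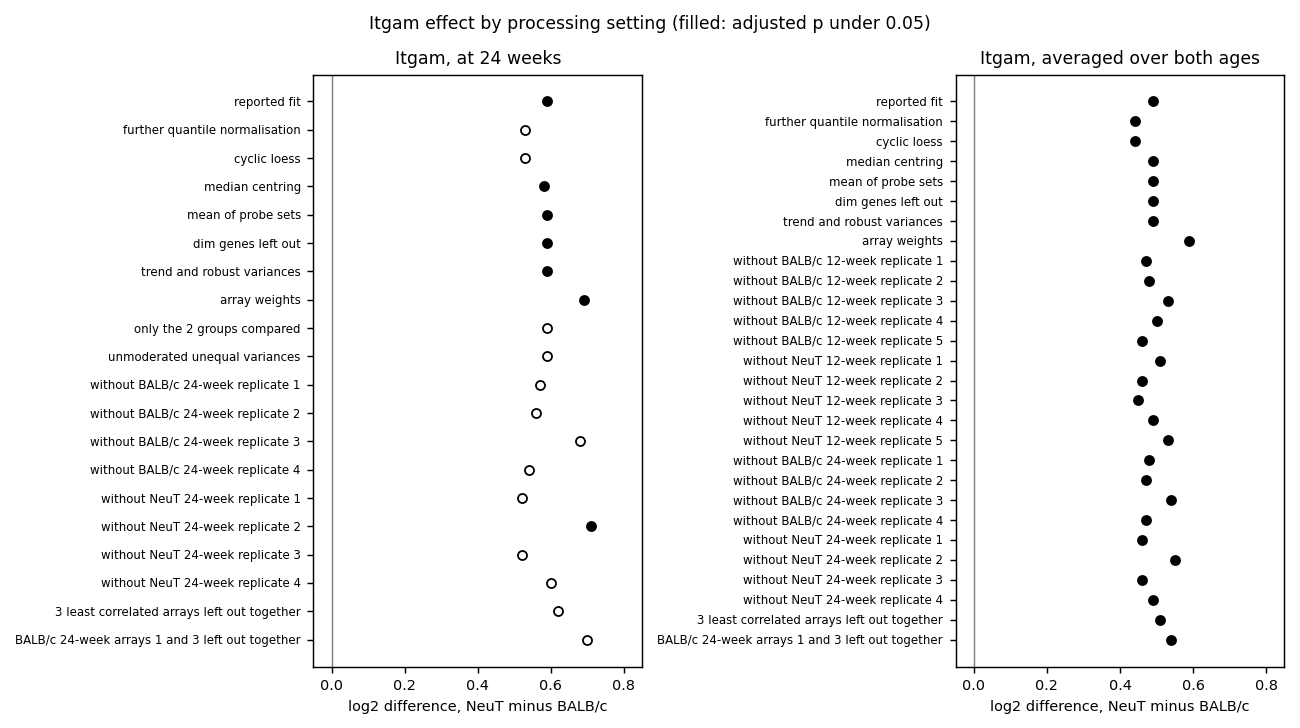
NeuT minus BALB/c difference in Itgam log2 signal (horizontal axis) in the reported fit and in each alternative (vertical axis), at 24 weeks (left) and averaged over both ages (right); filled points have a limma adjusted p under 0.05. The values stay between 0.52 and 0.71 at 24 weeks, where 6 of 19 alternatives passed, and between 0.44 and 0.59 for the average, where 27 of 27 passed. The sets of alternatives differ: the fits of only the 2 groups and with unmoderated unequal variances, which ended the 24-week call, were not run for the average.

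Ptprc, the gene of the pan-leukocyte antigen CD45, was above the negative controls' 95th percentile in 18 of 18 arrays of these preparations, which the labels describe as CD45-. In the 12-week BALB/c mice its signal was 12.27, 12.45, 12.21, 12.26 and 12.08. In the 12-week NeuT mice it was 11.70, 11.96, 12.17, 11.90 and 12.08. The groups overlapped, with 3 of 5 NeuT arrays below every BALB/c array. At 24 weeks the BALB/c mice had 11.90, 12.17, 12.43 and 12.30, and the NeuT mice 12.01, 12.08, 12.02 and 11.81. Here 1 NeuT array, replicate 4, was below every BALB/c array, and BALB/c replicate 1 lay among the NeuT values.

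The Ptprc difference was -0.30 at 12 weeks (SE 0.099, 95% confidence interval -0.50 to -0.09) and -0.22 at 24 weeks (95% confidence interval -0.45 to 0.01), and neither passed (limma, adjusted p = 0.088 and 0.41). At 12 weeks the fit without BALB/c 24-week replicates 1 and 3 gave the same -0.30 and passed (adjusted p = 0.0436). Averaged over both ages the difference was -0.26 (SE 0.074, 95% confidence interval -0.41 to -0.10), and passed (limma, adjusted p = 0.0343). That call ended in 10 of the 18 fits without 1 array, namely without BALB/c 12-week replicates 1, 2 or 4, NeuT 12-week replicates 1, 2 or 4, BALB/c 24-week replicates 3 or 4, or NeuT 24-week replicates 1 or 4. In these fits the difference lay between -0.26 and -0.22 (adjusted p from 0.0514 to 0.0923).

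Itgax, the gene of CD11c, was dim, with a mean above only 56.4% of the negative control probe sets and 0 arrays above their 95th percentile. In the 12-week mice its signal was 7.58, 7.59, 7.64, 7.46 and 7.46 in BALB/c and 7.49, 7.91, 7.79, 7.57 and 7.61 in NeuT. At 24 weeks it was 7.46, 7.89, 7.37 and 7.94 in BALB/c and 7.87, 7.77, 7.76 and 7.69 in NeuT. The 24-week BALB/c arrays fell on both sides of the NeuT arrays, with replicates 1 and 3 low. The NeuT difference was 0.13 at 12 weeks and 0.11 at 24 weeks (95% confidence interval -0.13 to 0.34), and neither passed (limma, adjusted p = 0.485 and 0.722). Without those BALB/c arrays the 24-week difference was -0.14 (adjusted p = 0.844).

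The common beta chain of both integrins, Itgb2, did not pass at either age. Its difference was -0.17 at 12 weeks (limma, adjusted p = 0.384) and 0.24 at 24 weeks (adjusted p = 0.396), where the groups did not overlap: the highest BALB/c array was at 9.65 and the lowest NeuT array at 9.66. At 24 weeks 4.95% of all genes were separated with NeuT higher.

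**Figure D3:**
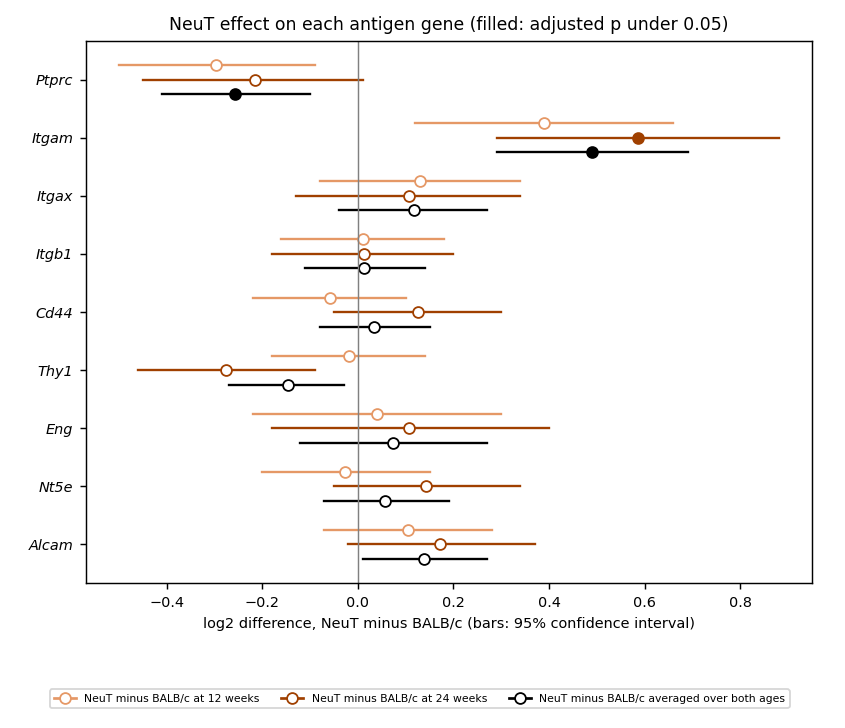
NeuT minus BALB/c difference in log2 signal (horizontal axis) of each antigen gene (vertical axis) at 12 weeks, at 24 weeks and averaged over both ages; points are limma estimates, bars 95% confidence intervals, and filled points have an adjusted p under 0.05. Itgam is filled at 24 weeks (0.59) and for the average (0.49), Ptprc for the average (-0.26), and no other gene is filled.

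The antigens by which the purified cells were characterised, CD29 and CD44, had signals above the negative controls' 95th percentile in 18 of 18 arrays. Neither gene passed a NeuT comparison. Itgb1 was 11.53, 11.34, 11.52, 11.50 and 11.40 in BALB/c and 11.56, 11.48, 11.34, 11.48 and 11.50 in NeuT mice at 12 weeks. At 24 weeks it was 11.31, 11.50, 11.10 and 11.57 in BALB/c and 11.30, 11.52, 11.41 and 11.30 in NeuT mice. The groups overlapped at both ages, with the lowest value in BALB/c 24-week replicate 3. The NeuT difference was 0.01 at each age, with 95% confidence intervals of -0.16 to 0.18 at 12 weeks and -0.18 to 0.20 at 24 weeks (limma, adjusted p = 0.953 and 0.969).

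Cd44 was 11.89, 11.94, 11.90, 11.86 and 11.86 in BALB/c and 11.83, 11.94, 12.01, 11.65 and 11.73 in NeuT mice at 12 weeks. At 24 weeks it was 11.59, 11.91, 11.76 and 11.93 in BALB/c and 11.95, 11.87, 11.90 and 11.96 in NeuT mice. The groups overlapped, and the lowest 24-week values were in BALB/c replicates 1 and 3. The NeuT difference was -0.06 at 12 weeks (95% confidence interval -0.22 to 0.10) and 0.13 at 24 weeks (95% confidence interval -0.05 to 0.30), and neither passed (limma, adjusted p = 0.70 and 0.559). Without BALB/c 24-week replicates 1 and 3 the 24-week difference was 0.01 (adjusted p = 0.995). Cd44 varied little within groups, with a residual SD of 0.111, at the 23.8th percentile of all genes.

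The further mesenchymal markers Thy1, Eng, Nt5e and Alcam did not pass a NeuT comparison. Alcam was above the negative controls' 95th percentile in 18 of 18 arrays, Eng in 2, and Thy1 and Nt5e in 0. Thy1 at 12 weeks was 8.49, 8.33, 8.33, 8.44 and 8.40 in BALB/c and 8.44, 8.38, 8.41, 8.50 and 8.16 in NeuT mice. At 24 weeks it was 8.35, 8.56, 8.73 and 8.47 in BALB/c and 8.19, 8.33, 8.33 and 8.16 in NeuT mice. The 12-week groups overlapped, and at 24 weeks all 4 NeuT arrays lay below all 4 BALB/c arrays. Such separation at 24 weeks was found for 1 of the 9 antigen genes and for 6.72% of all genes (1.76% with NeuT lower). The Thy1 difference was -0.02 at 12 weeks (adjusted p = 0.912) and -0.28 at 24 weeks (SE 0.088, 95% confidence interval -0.46 to -0.09), and the latter did not pass in limma (adjusted p = 0.131). With arrays weighted by their quality it was -0.27 and passed (adjusted p = 0.0354). Averaged over both ages the Thy1 difference was -0.15 (95% confidence interval -0.27 to -0.03) and did not pass (limma, unadjusted p = 0.0203, adjusted p = 0.121), except with array weights (adjusted p = 0.0358). The change in the Thy1 difference between the ages was -0.26 (95% confidence interval -0.50 to -0.01) and did not pass (adjusted p = 0.75).

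Eng, a co-receptor for ligands of the TGF-beta family, varied more within groups than most genes, with a residual SD of 0.229 (94.4th percentile of all genes). Its 12-week values ran from 9.86 to 10.16 in BALB/c and from 9.73 to 10.32 in NeuT mice. The 24-week BALB/c arrays were at 10.25, 10.11, 9.64 and 10.48 and the NeuT arrays at 10.07, 10.46, 10.13 and 10.24, so that the NeuT values lay inside the BALB/c range. The differences were 0.04 (95% confidence interval -0.22 to 0.30) and 0.11 (95% confidence interval -0.18 to 0.40), and neither passed (limma, adjusted p = 0.883 and 0.788).

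Nt5e, the enzyme that makes adenosine from AMP at the cell surface, had a mean above 55.6% of the negative control probe sets. Its values ran from 7.41 to 7.73 and from 7.44 to 7.76 in 12-week BALB/c and NeuT mice, and from 7.40 to 7.72 and from 7.63 to 7.90 at 24 weeks, with overlap at both ages. The differences of -0.03 and 0.14 did not pass (limma, adjusted p = 0.879 and 0.537).

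Alcam, an adhesion protein that binds CD6 on T cells, was 11.46, 11.36, 11.43, 11.30 and 11.35 in BALB/c and 11.35, 11.51, 11.54, 11.63 and 11.41 in NeuT mice at 12 weeks. At 24 weeks it was 11.13, 11.44, 11.69 and 11.43 in BALB/c and 11.69, 11.48, 11.56 and 11.64 in NeuT mice. The groups overlapped, and the 24-week BALB/c group held both the lowest value (replicate 1) and one of the highest (replicate 3). The differences were 0.11 (95% confidence interval -0.07 to 0.28) and 0.17 (95% confidence interval -0.02 to 0.37), and neither passed (limma, adjusted p = 0.495 and 0.452). Without BALB/c replicate 1 the 24-week difference was 0.07, and without replicate 3 it was 0.26.

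Of the 9 antigen genes, 0 passed at 12 weeks, where 3.84% of all genes did, and 2 had an unadjusted limma p under 0.05. At 24 weeks 1 passed, Itgam, against 1.4% of all genes. In the average over both ages 2 passed, against 8.56% of all genes. The median NeuT difference of the 9 genes was 0.011 at 12 weeks and 0.11 at 24 weeks, beside -0.025 and -0.00014 over all genes. In limma's test of the difference between the NeuT effects at both ages 0 of the 9 genes passed, against 0.0103% of all genes; 1 antigen gene had an unadjusted p under 0.05, and the Itgam difference was 0.20 larger at 24 weeks (adjusted p = 0.916).

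Age moved none of the antigen genes past the threshold in limma. In BALB/c mice the differences between 24 and 12 weeks ran from -0.09 to 0.13, with 0 of 9 genes called against 0.579% of all genes. In NeuT mice they ran from -0.12 to 0.16, with 0 of 9 called against 0.0359% of all genes. No antigen gene had an unadjusted p under 0.05 in either age comparison (0 of 9 in each). With arrays weighted by quality, Itgax passed in BALB/c mice (0.30, adjusted p = 0.0251). Age cannot be told apart from any processing batch of the mice of each age, which the labels do not give.

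Partners and ligands of the antigens were followed as lists. Beside the list counts, 3.84% of all genes passed at 12 weeks, 1.4% at 24 weeks and 8.56% in the average. The 13 measured integrin chains were CD18, other alpha chains that pair with it and alpha chains that pair with CD29. Of these 0 passed at either age. In the average 1 passed, Itga9 (-0.26, limma adjusted p = 0.0454), a count near the share of all genes. Itga9 was dim, at 7.19 to 8.02 over the arrays. Of 17 ligands and co-receptors, Bmpr2, a receptor for bone morphogenetic proteins, rose at 12 weeks (0.33, adjusted p = 0.0391) and Vcam1, the ligand of the CD29 integrins on leukocytes, rose at 24 weeks (0.47, adjusted p = 0.0233). In the average 3 of the 17 rose, Vcam1 (0.32), Bmpr2 (0.24) and the integrin ligand fibronectin, Fn1 (0.35), and 3 fell, the TGF-beta receptor Tgfbr2 (-0.36), the Alcam receptor Cd6 (-0.33) and the CD45-associated protein Ptprcap (-0.29), with limma adjusted p from 0.00326 to 0.0436. Vcam1 is also a marker of stromal cells and macrophages.

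Of 6 measured genes of the other depletion antigens, 1 rose and 1 fell at 24 weeks. Ly6c2, a gene of the Gr1 antigens of myeloid cells, rose by 0.44 (limma, adjusted p = 0.0293) and Cd3e, a chain of the T-cell CD3 complex, fell by 0.58 (adjusted p = 0.0354). At 12 weeks 0 of the 6 passed. The same 1 rose and 1 fell in the average (Ly6c2 by 0.33, adjusted p = 0.00283, and Cd3e by -0.36, adjusted p = 0.0155). Ly6c2 is nearly identical to Ly6c1, so its probe set may report both. Among 8 Ly6 genes other than Ly6a, 0 passed at 12 weeks, 2 rose at 24 weeks, Ly6c2 and Ly6i (0.35, limma adjusted p = 0.0345), and 1 rose in the average, Ly6c2. Ly6i was dim, at 7.59 to 8.18 over the arrays. Of 18 other mesenchymal markers 0 passed at 12 weeks and 1, Vcam1, rose at 24 weeks and in the average. Their median difference was -0.057 at 12 weeks and -0.01 at 24 weeks. Over all genes 3.84% passed at 12 weeks, 1.4% at 24 weeks and 8.56% in the average.

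Markers of blood cells moved with the groups in the same preparations. Their lists, like the others, were chosen with earlier results of these data known. Over all genes 3.84% passed at 12 weeks, 1.4% at 24 weeks and 8.56% in the average. Of 15 neutrophil genes, 5 rose at 12 weeks, 6 at 24 weeks and 13 in the average, with 0 lower. The granule proteins Ltf (1.67) and Mmp8 (1.55) had the largest average differences among them (limma, adjusted p = 0.00138 and 0.00148). The early granule genes Elane (0.15) and Mpo (0.09) did not pass (limma, adjusted p = 0.106 and 0.335). Both lay at percentile 100 of all genes in signal. Other early granule genes, Prtn3 and Ctsg, were among the 13 that rose. The mean log2 signal of these 15 genes ran over the arrays from 11.15 to 11.61 in 12-week BALB/c, 11.33 to 12.26 in 12-week NeuT, 11.17 to 11.54 in 24-week BALB/c and 11.56 to 12.25 in 24-week NeuT mice. Of 13 monocyte and macrophage genes, 5 rose and 1 fell at 12 weeks, 1 rose at 24 weeks, and 6 rose and 1 fell in the average, led by the chemokine receptor Ccr2 (0.86, adjusted p = 5.27e-05).

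Of 12 B-cell genes, 0 passed at 12 weeks, 1 fell at 24 weeks (Blk, -1.0, limma adjusted p = 0.0282), and 8 fell in the average, among them Cd79b (-0.76, adjusted p = 0.00656) and Pax5 (-0.88, adjusted p = 0.0078). Their mean signal ran from 10.92 to 11.12 in 12-week BALB/c, 9.76 to 11.00 in 12-week NeuT, 10.98 to 11.27 in 24-week BALB/c and 10.02 to 10.98 in 24-week NeuT mice. Of 13 T- and NK-cell genes, 1 rose at 12 weeks, and 1 rose and 3 fell at 24 weeks. In the average 1 rose and 4 fell, with Gzma (-0.87) and Cd2 (-0.81) among the 4. Nkg7, which exceeded 10.46 in every array, had higher means in the NeuT groups. At 12 weeks the Nkg7 mean was 12.6 with NeuT against 12.26 without, and at 24 weeks 12.84 against 12.44. The 24-week mean signal of the 13 genes ran from 8.61 to 9.03 over BALB/c arrays and from 8.36 to 8.65 over NeuT arrays. Of 10 stem and progenitor genes, 3 rose at 12 weeks and 6 in the average. Of 13 dendritic-cell genes, 0 passed at either age and 1 rose and 1 fell in the average, and of 8 erythroid genes 0 passed in any of these comparisons. Of 12 endothelial genes 1 fell at 12 weeks and 1 in the average, and of 16 interferon-response genes 4 rose at 12 weeks, 3 at 24 weeks and 6 in the average. Over all genes 3.84% passed at 12 weeks, 1.4% at 24 weeks and 8.56% in the average. Of the genes named from the lists, Itgb2, Itga9, Tgfbr2, Vcam1, Cd6, Ly6i, Cd3e, Blk, Gzma and Cd2 lay below 10.46 in every array. Ltf and Mmp8 lay below it in every BALB/c array. The sizes of the folds of these dim genes in transcript level are not known. The part of the listed markers in the antigen differences was not tested.

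Array by array, the antigen signals tracked some of these lists. The correlations below are descriptions over 18 arrays that share group differences and 1 normalisation, and are given first over the arrays and then over deviations from the group means, which remove the group differences. For each antigen the list with the highest r over deviations is given, and beside it some lists of cells known to carry the antigen. Itgam went most closely with the mean of the neutrophil genes, at r = 0.92 over arrays and 0.82 over deviations, followed by the monocyte and macrophage genes at 0.81 and 0.61. Ptprc went most closely over deviations with the integrin chains (0.65 and 0.78), the dendritic-cell genes (0.51 and 0.73) and the ligands and co-receptors (0.69 and 0.70). With the B-cell genes, the highest of its values over arrays, it gave 0.74 and 0.59, and with the neutrophil genes -0.55 and -0.06.

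Itgax went with the stem and progenitor genes at 0.72 and 0.68, and with the dendritic-cell genes at 0.30 and 0.26. Eng also went with the stem and progenitor genes, at 0.60 and 0.67, and with the endothelial genes other than Eng at 0.06 and 0.04. Alcam went with the Ly6 genes at 0.82 and 0.94, and with the monocyte and macrophage genes at 0.75 and 0.72. Thy1 gave -0.13 and 0.62 with the interferon-response genes, and 0.72 and 0.50 with the T- and NK-cell genes. The highest values over deviations were 0.60 for Itgb1 with the endothelial genes, 0.68 for Cd44 with the integrin chains and 0.52 for Nt5e with the ligands and co-receptors. With the other mesenchymal markers, Thy1 gave 0.11 and 0.60, Eng -0.22 and -0.25, and Nt5e 0.30 and 0.27. With the same list Alcam gave 0.15 and 0.24, Itgb1 0.23 and 0.19, and Cd44 0.26 and 0.04. These values are across the same arrays for 14 lists and were not tested.

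**Figure D4:**
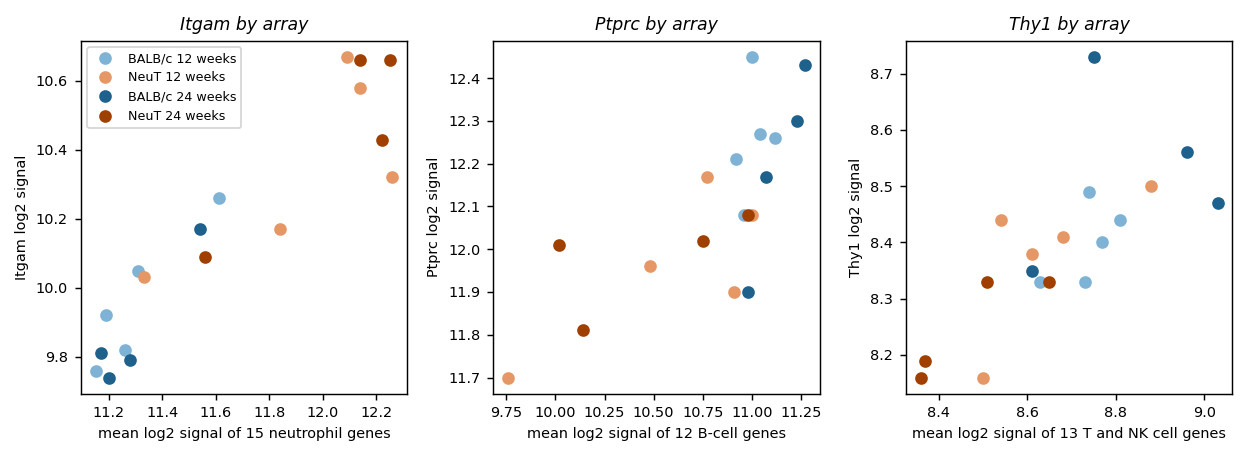
Log2 signal of Itgam, Ptprc and Thy1 (vertical axes) against the mean log2 signal of 15 neutrophil, 12 B-cell and 13 T- and NK-cell genes (horizontal axes); each dot is 1 array, coloured by group. The arrays lie along a rising band in each panel, with r over the 18 arrays of 0.92, 0.74 and 0.72; these were the lists with the highest r over arrays for each of the 3 genes.

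The genes most like each antigen over the 18 arrays, by Pearson r, were chosen as the 3 highest, passing over genes with provisional names. For Itgam they were Cd177, a neutrophil surface protein (0.95), Olfml2b (0.94) and Ltf (0.93), and over deviations from the group means Cd177 (0.90), Olfml2b (0.90) and S100a8 (0.85), so that 2 of the genes were in both sets. For Ptprc they were Bmf (0.91), Iqsec1 (0.91) and Dok3 (0.90), and for Thy1 Apoe (0.83), Slc16a12 (0.83) and Nlrp9a (0.83). For Itgb1 they were Mllt3 (0.89), Eef1d (0.89) and Prim2 (0.85), and for Cd44 Plagl2 (0.93), Ciapin1 (0.90) and Cdc42se1 (0.90). Itgax was most like Tbc1d1 (0.85), Rbpj (0.83) and Mycbp2 (0.83). Eng was most like Zfp874b (0.87), Adgrl1 (0.85) and Zfp952 (0.85), Nt5e like Eepd1 (0.86), Olfr126 (0.73) and Vasp (0.72), and Alcam like Atg101 (0.92), Cyba (0.92) and Naxe (0.91). Some of these genes had mean signals below the negative controls' median of 7.35. They were Slc16a12 (6.91), Nlrp9a (5.08), Zfp874b (6.91), Zfp952 (7.27) and Olfr126 (5.59). Among themselves the 9 antigen genes gave 36 pairs, whose r over deviations ran from -0.59 for Eng with Alcam to 0.73 for Itgax with Cd44.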

How the data were processed

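The deposited table holds log2 signals, 1 per probe set and array; per the submitters' processing notes the authors used RMA and the Transcriptome Analysis Console, with no version stated; the array's genome build is not given in the sources consulted. Of 29129 probe sets, 19572 had 1 gene symbol; controls and 2634 unnamed clusters were left out, and the probe set with the highest mean was kept for 55 genes with several, leaving 19505 genes. The antigens and 14 gene lists were chosen with earlier results of these data known. From each list the genes past the threshold (up to 4 by size) or the 2 with the smallest p were eligible to be named.

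A mean per group was fitted with limma 3.58.1 in R 4.3.3 (14 residual and 8.68 prior degrees of freedom), two-sided, with Benjamini-Hochberg adjustment over all genes and a threshold of 0.05. Replicates are different mice, and their number limits the precision. On simulated data, with 200 of 19505 genes changed by 0.5 in log2, the fit recovered 92.5% at 12 weeks, 81.5% at 24 weeks, 38.5% for the difference of the NeuT effects, and 82.5% and 86.5% with age in BALB/c and NeuT. The simulated noise was normal and independent between genes, with no outlying arrays, so recovery in the real data may be lower. These shares are over genes drawn at random. They do not describe genes that vary more, such as Itgam (residual SD 0.236, percentile 95.2 of all genes) and Eng. Alternatives changed the normalisation, filters, variance model, array weights and arrays used. Figures used matplotlib 3.10.9 in Python 3.11.15.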

Additional observations from a re-analysis of the deposited data

Results flagged for a closer look

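The Itgam signal of BALB/c 24-week replicate 3 (10.17) stood apart from the other arrays of its group, of which the nearest was at 9.81. The gap was 0.833 of the group's range, above Dixon's 95% critical value for 4 samples. Of 36 groups of values tested this was the only one past its critical value, and chance gives about 1 in 20. The array was also among the 3 least correlated with the others (0.988) and had the highest median signal (8.56). Without it the 24-week Itgam difference was 0.68 (limma, adjusted p = 0.0544).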

How the results depend on the processing

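Across 54 results for single antigen genes and 1206 alternative values, 0 reversed a called direction, 1176 kept their side of the threshold, 24 lost it and 6 gained it. At 12 weeks, where 0 antigen genes passed, 1 passed with array weights and 1 without BALB/c 24-week arrays 1 and 3 together, and 0 to 1 when single arrays were left out. At 24 weeks the count of 1 became 0 after a further quantile normalisation, after cyclic loess, with only the 2 groups compared, with unmoderated unequal variances, without the 3 least correlated arrays and without BALB/c 24-week arrays 1 and 3. It became 2 with array weights and 0 to 1 when single arrays were left out. With age in BALB/c 1 passed with array weights, against 0. In the average, the count of 2 became 1 without the 3 least correlated arrays, where Ptprc was at -0.22 (adjusted p = 0.144), 3 with array weights, where Thy1 also passed, and 1 to 2 when single arrays were left out. Over all genes, 749 passed at 12 weeks (9 to 2088 in the other alternatives, 230 to 1363 without 1 array), 274 at 24 weeks (0 to 577 and 8 to 641), 2 for the difference (0 to 10), 113 and 7 with age in BALB/c and NeuT (13 to 2375 and 0 to 72; without 1 array 0 to 589 and 1 to 177), and 1670 in the average (842 to 2452; without 1 array 979 to 2152). The average over both ages and the fits without BALB/c 24-week arrays 1 and 3 together were chosen after seeing the data. The cause of these changes was not tested. Itgax, Nt5e and Thy1 lay within the range of the negative controls in all arrays, and Itgam and Eng in all but 5 and 2, which limits what their signals can show. No paired analysis was possible because the labels number the mice individually and share no replicate numbers between groups.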
